A study of Homo sapiens with 6 samples.

Results

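The replication-dependent histone genes encode the histones that package newly copied DNA. They were taken here as the rows of the deposited table whose gene ID is a protein-coding gene in GENCODE release 29 with a symbol that begins HIST1H, HIST2H, HIST3H or HIST4H. Of 90 rows with such a symbol, 19 were pseudogenes, which left 71 genes of 58676 in the table: 6 of the linker histone H1, 17 of H2A, 18 of H2B, 15 of H3 and 15 of H4. By position, 55 belonged to the HIST1 cluster on chromosome 6, 12 to HIST2 and 3 to HIST3 on chromosome 1, and 1 to HIST4 on chromosome 12. Of the 71 genes, 40 reached 0.5 RPKM (reads scaled by exon length and by the library's assigned reads) in at least 3 of the 5 libraries used and were tested.

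Total RNA of a human hepatocellular carcinoma cell line, which the labels do not name, was sequenced in 6 libraries, 3 labelled control (titles beginning 238) and 3 labelled knockdown (titles beginning sponge). The series' title names miR-19a, a microRNA, and its design text sets knockdown against control. Cells of both groups were grown in DMEM with 10% FBS, and the labels give no time, dose or construct beyond these names. Knockdown replicate 2 was left out because its column did not match the gene IDs, so 3 control and 2 knockdown libraries were compared. Whether replicates were separate cultures is not stated, and the tests therefore rest on a spread between libraries that could be technical.

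Most replication-dependent histone genes lack introns, and their mRNAs end in a conserved stem-loop in place of a poly(A) tail. The stem-loop is bound by SLBP, which serves the processing, translation and decay of these mRNAs, so that their level follows S phase, when DNA is copied. A smaller share of transcripts from several of these genes is cleaved further downstream and polyadenylated. The replication-independent histones (such as H3F3A and H2AFZ) mostly come from polyadenylated, spliced mRNAs that are made throughout the cell cycle.

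The stem-loop is shown for 6 genes of high level or low p because the annotation's treatment of it sets the exon length behind each RPKM value. Each line gives 26 bases of the gene's own strand from GENCODE transcripts (GRCh38), with the 16-base histone stem-loop motif in capitals.
HIST2H2AA3, chr1:149842218-149842243, minus strand: caaaaGGCTCTTTTCAGAGCCaccca
HIST3H2A, chr1:228457364-228457389, minus strand: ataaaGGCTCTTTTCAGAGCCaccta
HIST1H2AC, chr6:26124664-26124689, plus strand: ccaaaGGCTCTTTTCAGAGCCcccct
HIST1H2BD, chr6:26158582-26158607, plus strand: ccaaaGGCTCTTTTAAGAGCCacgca
HIST2H4A, chr1:149833027-149833052, plus strand: ccaaaGGCCCTTTTTAGGGCCgacca
HIST1H4I, chr6:27139649-27139674, plus strand: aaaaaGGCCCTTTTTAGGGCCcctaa
The motif, searched on the transcript's own strand with 4 of its 16 bases free, was present in an annotated transcript of 32 of the 71 genes, 23 of them tested, and of 10 of 19851 other protein-coding genes (0.05%). The form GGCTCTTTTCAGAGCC occurred in 17 genes, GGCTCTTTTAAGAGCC in 5, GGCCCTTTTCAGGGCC in 5, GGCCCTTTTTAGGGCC in 3, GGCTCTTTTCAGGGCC in 1 (HIST1H2AG) and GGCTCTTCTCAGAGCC in 1 (HIST1H3E). For 33 genes, HIST1H2BK and HIST1H1C among them, the annotation holds the coding part only, so the motif could not be found there. A missing match says nothing about the transcript in the cells.

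The H2B promoters are shown because 9 of the 10 H2B genes tested had a difference above 0, as described further on. Without control replicate 2, 7 of the 10 did. RefSeq promoters (GRCh38.p14, 250 bases before to 50 after the gene's start) were matched for 66 of the 71 genes, and 30 bases are given on the gene's own strand with the octamer ATTTGCAT, the sequence that POU2F1 (OCT-1) is known to bind, in capitals.
HIST1H2BK, chr6:27146886-27146915, minus strand: ctcttcaccttATTTGCATgagaggtccta
HIST1H2BJ, chr6:27132824-27132853, minus strand: ctcttcaccttATTTGCATaagcgattcta
HIST2H2BE, chr1:149886710-149886739, minus strand: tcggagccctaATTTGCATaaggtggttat
HIST1H2BG, chr6:26216718-26216747, minus strand: ttgaattctttATTTGCATgaaaggcctat
The octamer, searched on both strands, was in 14 of 18 H2B promoters, 11 of 16 of H2A, 1 of 13 of H3 and none of H1 or H4, against 2.1% of 27239 other genes. Among the 10 H2B genes tested, 8 held it, and HIST1H2BD, the H2B gene of lowest p, did not. HIST1H2BC, the only H2B gene tested with a difference below 0, held it. Whether the octamer goes with the difference was not tested. CCAAT was in 56 of the 66 promoters (39.6% of other genes) and TATAAA in 45 (13.9% of other genes), both strands searched. Only 3 of 13 H4 promoters held CCAAT. None of these motifs contains another, though ends can overlap, and a match is a description of the sequence, not of binding.

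Depth differed widely between libraries. Since the RPKM values are whole multiples of 1 read, assigned reads could be recovered: 9181567, 1948940 and 19605312 in control replicates 1, 2 and 3, and 9296308 and 15198231 in knockdown replicates 1 and 3. The histone genes took 1632, 195, 3046, 1691 and 3089 of these reads in the same order, or 178, 100, 155, 182 and 203 RPM (reads scaled to library depth only). In control 2, 1 read on a gene of 381 bases, the annotated length of HIST1H2BK, was worth 1.35 RPKM, and 31 of the 40 genes tested had fewer than 10 reads there. The left-out column had a Spearman correlation of 0.0173 to 0.0191 with the others, which correlated at 0.822 to 0.887 among themselves. All 10 hepatocyte markers were above the filter, with ALB at 652 to 951 and AFP at 217 to 312 RPKM. Summed markers of fibroblasts were 63.9 to 83.7 RPKM, nearly all LUM (54.2 to 68.3 in single libraries) and COL1A2, those of blood and immune cells 32.8 to 43.1, mostly CD14, and those of endothelium 0.406 to 1.06. COL3A1, DCN, KDR, PTPRC and HBB were at or near 0 in every library. CD3D (3.07 to 6.14 RPKM), COL1A1 (0.732 to 2.33 RPKM), PDGFRA and PECAM1 of these lists were also above the filter. MIR19A is listed at 0 in all 5 libraries, and MIR17HG, the host transcript of miR-19a, read 0.811, 0.441 and 1.24 RPKM in control and 1.26 and 1.13 RPKM in knockdown libraries. A gene table of this kind does not measure the mature microRNA, so these values do not check the knockdown.

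A few genes carried most of the histone signal. HIST1H2BK alone made up 30.9% to 35.5% of the summed RPKM of the 71 genes. The 3 highest genes made up 53.2% to 62.9% and the 8 highest 72.5% to 81.4%. The 3 highest include HIST2H2AA3 and its near-identical copy HIST2H2AA4, both counted here though close to 1 measurement, as described below. At the other end, 9 genes were listed at 0 in all 5 libraries and 11 more had 1 to 4 reads in all libraries together. HIST1H2BI (mean 0.621 RPKM) and HIST1H2BF (0.506 RPKM) were the highest of the 31 genes that did not pass the filter, and HIST1H2BE (0.459 RPKM) was the lowest that did. HIST1H1E and HIST1H2AH passed through the control libraries only, so their lower knockdown values are in part set by the filter.

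Levels differed between genes that the annotation draws in different ways. The 33 genes annotated by their coding part alone had a median level of 0.327 RPKM, and 14 of them were tested. The 7 genes annotated to end at the stem-loop, here within 60 bases of it, had a median of 1.39 RPKM and 6 were tested. The 27 genes with a transcript that runs past the stem-loop or is spliced had a median of 0.845 RPKM, 18 were tested and none was at 0 in all libraries. The remaining 4 genes, single exons with no stem-loop found, had a median of 0.337 RPKM. These are levels per exon length as annotated, with no test, and the genes differ in much besides their annotation.

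**Figure D1:**
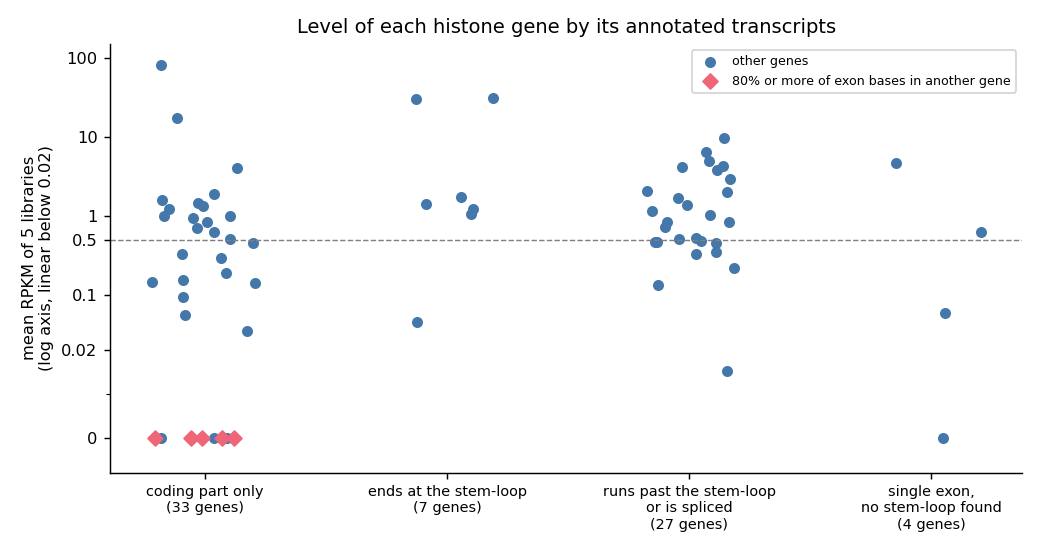
Mean RPKM of the 5 libraries (log axis, linear below 0.02) for each of the 71 histone genes, grouped by how GENCODE draws its transcripts. The dashed line marks 0.5 RPKM, and the 5 genes with 80% or more of their exon bases inside another gene (diamonds) all lie at 0.

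All 5 genes that share 88.0% or more of their exon bases with another gene (HIST1H2AD, HIST1H3D, HIST1H2AK, HIST1H2AM and HIST2H3PS2) were listed at 0 in every library. Of the other 66 genes, whose overlap reached 44.6% at most, 4 were at 0 (HIST1H2AA, HIST1H4G, HIST1H4F and HIST1H1T, a testis-specific H1). A 0 for the 5 overlapped genes may therefore not be a measured absence, since how reads in shared exons were assigned, and whether by strand, is not given in the sources used here. Of the overlapping genes, AL031777.3, which covers HIST1H2AD and HIST1H3D, had at most 3 reads in a library, and HIST1H3J, which covers HIST1H2AM, at most 8. HIST1H2BN, which covers HIST1H2AK from the other strand, had 10, 3, 44, 18 and 32 reads over its 5477 exon bases, in the order of control 1, 2 and 3 and knockdown 1 and 3.

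The HIST2 cluster holds 3 pairs of near-identical copies whose reads cannot be assigned to 1 of them with certainty. HIST2H2AA3 and HIST2H2AA4 share 100% and 97.1% of their 50-base words, and their reads differed by at most 3 in any library. HIST2H4A and HIST2H4B share 97.5% and 97.2%, and HIST2H3A and HIST2H3C 100%. Members of these pairs are thus close to 1 measurement given under both names. HIST1H4J and HIST1H4K share 81.2% and 100%, and HIST1H2AI and HIST1H2AJ 62.3% and 83.7%, so their values are uncertain too, though they differ more: HIST1H2AI had 3 reads in control 2 and HIST1H2AJ 0.

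In the comparison of knockdown with control, no histone gene passed. Limma on log2(RPKM + 0.5), a scale that understates differences of low genes, called 0 of 15408 genes (0%) at an adjusted p under 0.05, and the smallest adjusted p of a histone gene was 0.71. At an unadjusted p under 0.05 it found 585 genes higher (3.8%) and 392 lower (2.54%) in the knockdown libraries, and limma voom on the recovered reads called 0 genes with 1632 at an unadjusted p under 0.05. Of the 40 histone genes, 1 was higher (2.5%) and 1 lower (2.5%) at that level, shares near those of all genes. Knockdown values both exceeded the 3 control values for 9 histone genes (22.5%, against 14.3% of all genes). Both were below all controls for 4 (10%, against 13.6% of all genes), and 27 overlapped. These 4 include HIST1H2AH, the 1 lower at that unadjusted p, and HIST1H1E. Both genes passed the filter through the control libraries only, so the counts of lower genes are in part set by the filter. The log2 difference was above 0 for 28 of the 40 (70%, against 50% of all genes), with a median of 0.23 beside a median of 0.00 over all genes tested.

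That median rested largely on control 2. Without that library the median was 0.05 over 38 genes, with 20 above and 18 below 0, beside -0.05 over all genes and 44.7% of all genes above 0. It was 0.07 after removal, library by library, of the trend with exon length and GC content, and 0.06 with voom on the recovered reads. In the per-library view, the histone genes' median deviation from each gene's mean was 0.15, -0.44 and 0.03 in controls 1, 2 and 3. It was 0.16 and 0.15 in the knockdown libraries, so that control 2 was low and the other 4 lay close together. Over all genes tested it was 0.004, -0.112 and 0.122 in the controls and 0.012 and 0.001 in the knockdown libraries. Control 2 was thus the lowest library for all genes too, by less. Control 2 was also the shallowest library and held 195 histone reads. For the histone genes control 3, the deepest, was at 0.03, below control 1 at 0.15. The part of depth in the difference was not tested.

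**Figure D2:**
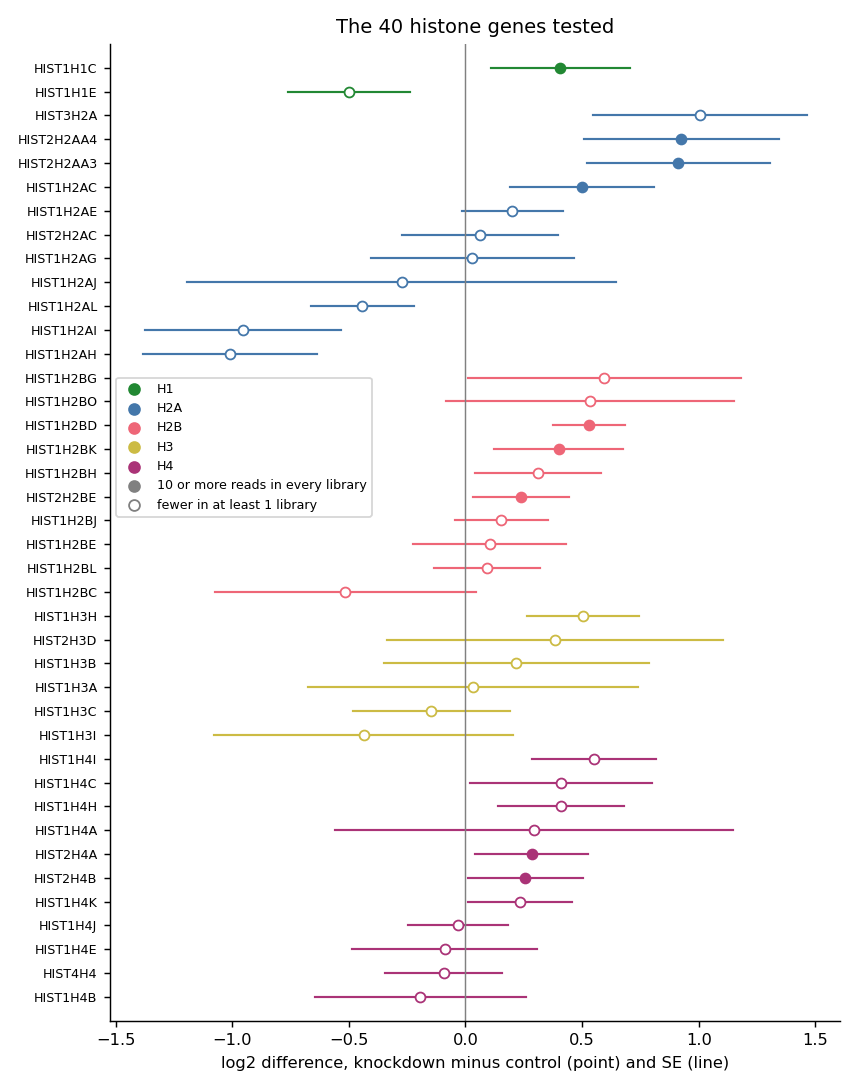
Log2 difference of knockdown minus control on the log2(RPKM + 0.5) scale (points) with its standard error (lines) for the 40 histone genes tested, by histone class. Filled points, genes with 10 or more reads in every library, all lie above 0, and open points lie on both sides.

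The 9 genes with at least 10 reads in every library (HIST1H2BK, HIST2H2AA3, HIST2H2AA4, HIST1H1C, HIST1H2BD, HIST1H2AC, HIST2H4A, HIST2H4B and HIST2H2BE) all had differences above 0, with a median of 0.41. Without control 2 all 9 were still above 0, with a median of 0.22. They include 2 of the near-identical pairs, and HIST3H2A and HIST1H4C, which have higher mean RPKM than some of them, are not among them. The shares of all genes above 0 (50%, and 44.7% without control 2) cover every gene tested, not only genes with that many reads. Among the other 31 histone genes tested 19 were above 0, with a median of 0.09. The standard error of a histone gene was 0.33 in the median, from 0.155 to 0.92, against 0.24 over all genes tested. The median exon length was 509 bases for the 71 histone genes and 5020 bases for protein-coding genes tested, so that a histone gene of the same RPKM rests on fewer reads.

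Values of single genes are given below in the order of control 1, 2 and 3, then knockdown 1 and 3.

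HIST1H2BK (ENSG00000197903, chr6:27146418-27146798, minus strand), a core histone H2B gene of the HIST1 cluster, was at 94.0, 51.2, 75.5, 95.1 and 93.4 RPKM, from 329, 38, 564, 337 and 541 reads. The groups overlapped, and control 2 was the lowest library. The log2 difference was 0.40 ± 0.28 (SE; limma adjusted p = 0.737), and 0.16 without control 2. HIST1H2BK shares 61.4% of its 50-base words with H2BFS, an H2B gene annotated at 2 places on chromosome 21. Each H2BFS entry had 3, 13, 3, 5 and 9 reads, so control 2, the shallowest library, held the most. HIST1H2BK was at 35.8, 19.5, 28.8, 36.3 and 35.6 RPM, and with 1 H2BFS entry added at 36.2, 26.2, 28.9, 36.8 and 36.2. The gap between control 2 and the other libraries was smaller on the sum.

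HIST1H2BD (ENSG00000158373, chr6:26158146-26171349, plus strand), an H2B gene with a spliced transcript annotated beside the one that holds the stem-loop shown above, was at 7.63, 7.66, 8.96, 11.5 and 12.2 RPKM. The 2 knockdown libraries lay above all controls, and the controls lay close together. The log2 difference of 0.53 ± 0.16 (SE) had the lowest p of the histone genes and was the 1 higher at an unadjusted p under 0.05 (limma adjusted p = 0.71). It was 0.49 to 0.60 when any 1 library was left out, and 0.51 with voom, so control 2 did not set it. HIST2H2BE, at 2.28, 2.57, 3.12, 2.89 and 3.54 RPKM, differed by 0.24 ± 0.21 (SE) with overlapping groups, and by 0.11 without knockdown 3.

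**Figure D3:**
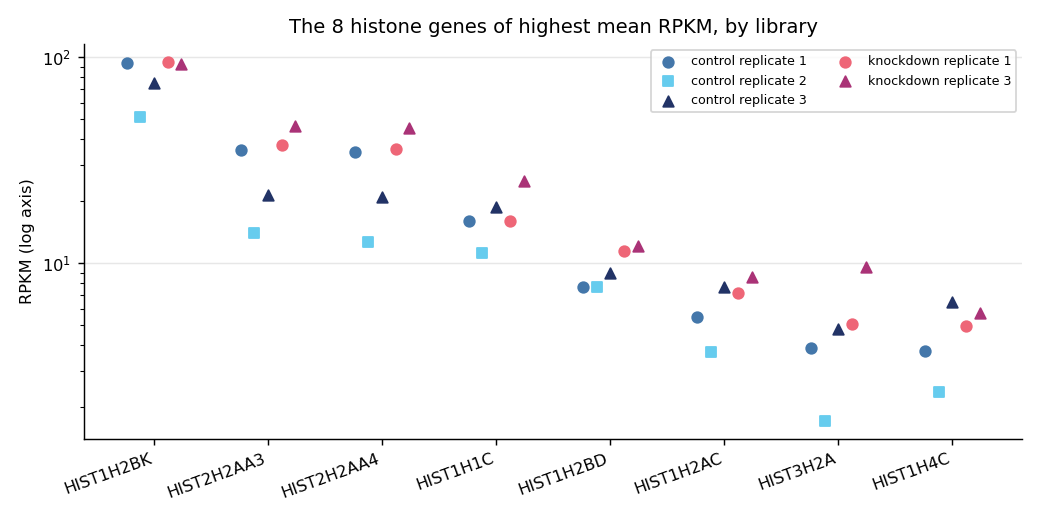
RPKM (log axis) of the 8 histone genes of highest mean level in each of the 5 libraries; each point is 1 library. Control replicate 2 is the lowest library for 7 of the 8 genes, and HIST1H2BD is the exception.

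Of the other H2B genes tested, HIST1H2BJ was at 2.06, 1.62, 2.04, 2.26 and 2.08 RPKM, with both knockdown libraries just above the controls and a log2 difference of 0.15 ± 0.20 (SE). HIST1H2BG, HIST1H2BO, HIST1H2BH, HIST1H2BE and HIST1H2BL had differences of 0.60, 0.53, 0.31, 0.10 and 0.09, all with overlapping groups, and HIST1H2BG and HIST1H2BO had 0 reads in control 2. HIST1H2BC, at 3.66, 1.23, 2.14, 2.58 and 0.631 RPKM, was the only H2B gene tested below 0 (-0.52 ± 0.56, SE), and without knockdown 3 it was at 0.21. Over the H2B class 9 of 10 genes were above 0 with a median of 0.27. Without control 2 this was 7 of 10 with a median of 0.07. The summed RPKM of the 18 H2B genes was 117.9, 71.2, 97.9, 120.7 and 118.0, so that knockdown 3 exceeded control 1 by 0.1 RPKM only.

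HIST2H2AA3 (ENSG00000203812, chr1:149842188-149842736, minus strand), 1 of a pair of H2A genes in the HIST2 cluster, was at 35.5, 14.0, 21.4, 37.6 and 46.6 RPKM. HIST2H2AA4, its copy, was at 34.6, 12.7, 21.1, 36.0 and 45.3 RPKM. For both, the 2 knockdown libraries lay above all controls, though knockdown 1 exceeded control 1 by little, and controls 1 and 2 differed by more than the groups did. The log2 differences were 0.91 ± 0.39 and 0.92 ± 0.42 (SE; limma adjusted p = 0.71 for both). Without control 2 they were 0.60 and 0.57, and without control 1 they were 1.25 and 1.27.

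HIST3H2A (ENSG00000181218, chr1:228456979-228457873, minus strand), the H2A gene of the HIST3 cluster, was at 3.89, 1.72, 4.79, 5.05 and 9.56 RPKM, from 32, 3, 84, 42 and 130 reads. It had the largest log2 difference above 0 of the 40 genes, 1.01 ± 0.46 (SE; limma adjusted p = 0.71). The groups did not overlap, but knockdown 1 stood just above control 3, and the difference was 0.58 without knockdown 3 and 0.63 without control 2. HIST1H2AC was at 5.48, 3.69, 7.64, 7.16 and 8.56 RPKM and differed by 0.50 ± 0.31 (SE). Its groups overlapped through control 3, and without control 2 it differed by 0.26.

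Other H2A genes were low. HIST1H2AE was at 0.856, 1.01, 1.00, 1.06 and 1.29 RPKM, with both knockdown libraries above the controls and a log2 difference of 0.20 ± 0.22 (SE). HIST2H2AC, HIST1H2AG and HIST1H2AJ differed by 0.06, 0.03 and -0.27, with overlapping groups. A further 3 H2A genes had both knockdown libraries below all controls. HIST1H2AH was at 0.563, 1.33, 1.71, 0.278 and 0.340 RPKM, from 2, 1, 13, 1 and 2 reads, and it was the 1 histone gene lower at an unadjusted p under 0.05 and differed by -1.01 ± 0.37 (SE; limma adjusted p = 0.71). HIST1H2AI and HIST1H2AL, at 44 and 26 reads over all 5 libraries, differed by -0.95 ± 0.42 and -0.44 ± 0.22 (SE). HIST1H2AH passed the filter through the controls only, so its low knockdown values are in part set by that choice. HIST1H2AI was at -0.37 without knockdown 1 and -1.53 without knockdown 3. Over the H2A class 7 of 11 were above 0 with a median of 0.06, and without control 2 it was 5 of 10 with a median of 0.03. The summed RPKM of the 17 H2A genes was 93.7, 41.7, 68.1, 92.6 and 122, in which HIST2H2AA3 and HIST2H2AA4 have the largest part.

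HIST1H1C (ENSG00000187837, chr6:26055787-26056428, minus strand), the highest of the replication-dependent H1 genes, was at 16.1, 11.2, 18.8, 16.1 and 25.1 RPKM. Knockdown 1 matched control 1, and knockdown 3 alone was above all controls. The log2 difference of 0.41 ± 0.30 (SE; limma adjusted p = 0.747) was 0.09 without knockdown 3, 0.72 without knockdown 1 and 0.20 without control 2. HIST1H1E, which passed through controls only, was at 1.01, 0.681, 0.609, 0.428 and 0.349 RPKM (log2 difference -0.50 ± 0.26, SE), from 24 reads in all. The other 4 genes of the class did not pass the filter, among them HIST1H1A at a mean of 0.458 RPKM. H1F0, a replication-independent linker histone, was higher than HIST1H1C in every library, at 117, 93.5, 126, 139 and 147 RPKM.

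HIST1H4C (ENSG00000197061, chr6:26103876-26104310, plus strand) was the H4 gene of highest level, at 3.76, 2.36, 6.45, 4.95 and 5.75 RPKM. Both knockdown libraries lay within the range of the controls, and the log2 difference was 0.41 ± 0.39 (SE; limma adjusted p = 0.795), and 0.10 without control 2. The stem-loop motif was not found in its 435-base exon, and control 2 held 2 of its reads. HIST2H4A and HIST2H4B differed by 0.28 ± 0.24 and 0.26 ± 0.25 (SE), and by 0.07 and 0.04 without knockdown 1. HIST1H4I was at 3.79, 2.38, 3.11, 3.82 and 5.75 RPKM and differed by 0.55 ± 0.27 (SE; limma adjusted p = 0.71), with knockdown 1 just above control 1 and a difference of 0.29 without knockdown 3. HIST1H4H was at 0.453, 0.237, 0.519, 0.647 and 0.730 RPKM (0.41 ± 0.27, SE), also with groups apart. HIST1H4A, HIST1H4K, HIST1H4J, HIST1H4E, HIST4H4 and HIST1H4B lay between -0.19 and 0.29, all with overlapping groups. Over the H4 class 7 of 11 were above 0 with a median of 0.26, and without control 2 it was 6 of 11 with a median of 0.10.

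The H3 genes were the lowest core histones, and none exceeded a mean of 1.60 RPKM (HIST1H3C). Their summed RPKM was 12.2, 2.08, 9.10, 8.27 and 7.74, where the value of control 2 came from 3 reads over the 15 genes. HIST1H3H, an H3 gene with 769 annotated bases after its stem-loop, was at 1.32, 0.830, 1.11, 1.57 and 1.91 RPKM. Its groups did not overlap, and the log2 difference was 0.50 ± 0.24 (SE; limma adjusted p = 0.71). HIST2H3D, HIST1H3B, HIST1H3A, HIST1H3C and HIST1H3I differed by 0.38, 0.22, 0.03, -0.15 and -0.44 with overlapping groups, and all but HIST1H3C had 0 reads in control 2. The class median was 0.13, with 4 of 6 above 0, and without control 2 it was -0.30, with 1 of 6 above 0. The direction of the H3 class therefore turned on 1 library.

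**Figure D4:**
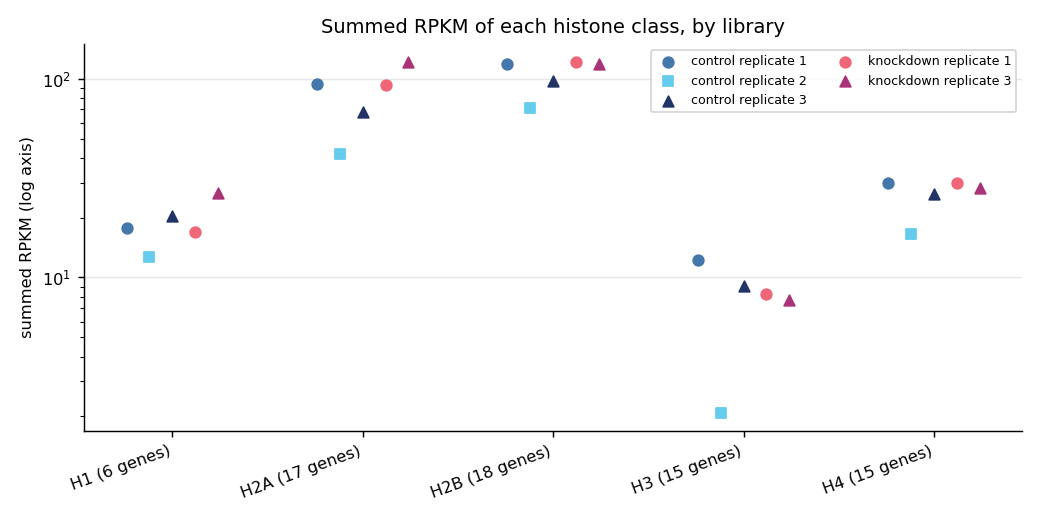
Summed RPKM (log axis) of the genes of each histone class in the 5 libraries; each point is 1 library. Control replicate 2 is the lowest point of every class, and the H2A sums run from 41.7 to 122.

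Summed over the 71 genes, the histone level was 272, 144, 222, 268 and 303 RPKM. The mean was 212 ± 64.2 (SD, n = 3) in control and 285 ± 24.4 (SD, n = 2) in knockdown, a log2 ratio of 0.43. Knockdown 1 lay below control 1, so the groups overlapped, and without control 2 the ratio was 0.21. The ratio was 0.46 without HIST1H2BK and 0.37 with each of the 3 near-identical HIST2 pairs counted once. As means over the libraries of each group, H2B held 45.6% of the sum in control and 42.0% in knockdown. H2A, with HIST2H2AA3 and HIST2H2AA4 both counted, held 31.4% and 37.4%. H4 held 11.4% and 10.2%, H1 8.18% and 7.56%, and H3 3.35% and 2.82%. The H2A sums of control 1 and knockdown 1 were alike (93.7 and 92.6 RPKM), and that of knockdown 3 was 122 RPKM. The differences in share were not tested.

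By cluster, the HIST2 sums were 91.5, 38.4, 60.3, 93.7 and 110 RPKM, and all 7 HIST2 genes tested were above 0, with a median of 0.28. These 7 hold the HIST2H2AA3 and HIST2H4A genes with their copies, so they are fewer separate measurements. Without control 2, 5 of the 7 were above 0 with a median of 0.14. The HIST1 sums were 175, 103, 156, 168 and 182 RPKM, with overlapping groups, and 20 of 31 genes were above 0 (median 0.15). Without control 2 it was 14 of 29 (median -0.04). HIST4H4, the single HIST4 gene, was at 1.35, 0.796, 1.03, 1.00 and 0.893 RPKM and differed by -0.09 ± 0.25 (SE).

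The 12 replication-independent histones summed to 532, 397, 565, 526 and 633 RPKM, and control 2 was the lowest library here too. The median of the 12 tested was 0.19, with 9 above 0, 3 below and none called. H2AFJ (26.6, 20.6, 19.4, 27.7 and 34.8 RPKM), an H2A variant, differed by 0.49 ± 0.20 (SE), H2AFY2, a macroH2A, by 0.62 ± 0.26 and H1FX, a linker histone variant, by 0.44 ± 0.21. Both knockdown libraries lay above all controls in these 3 and in H1F0, 4 of the 12, against 14.3% of all genes tested. None of the 12 had both below all controls, against 13.6% of all genes. The list's median deviation was 0.04, -0.39 and 0.14 in the controls and -0.04 and 0.30 in the knockdown libraries, and without control 2 the median difference was 0.03, with 6 above and 6 below 0.

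The enzymes and factors that copy DNA in S phase lay on the other side. The median of the 30 tested was -0.34, with 28 below 0 and 2 above, and 13 were lower at an unadjusted p under 0.05 (2.54% of all genes were), though none was called after adjustment. MCM6, a subunit of the replicative helicase, was at 44.4, 42.0, 49.7, 32.4 and 28.4 RPKM (log2 difference -0.57 ± 0.16, SE; limma adjusted p = 0.71). MCM2, of the same helicase, was at 36.7, 46.3, 36.7, 27.5 and 19.9 RPKM (-0.75 ± 0.21, SE), and CDC6, which loads it, at 15.5, 14.2, 18.0, 10.1 and 10.8 RPKM (-0.58 ± 0.16, SE). For these genes both knockdown libraries lay below all controls. Control 2 was the highest library for MCM2 and the lowest control for MCM6 and CDC6. Without control 2, 29 of 30 were below 0 with a median of -0.44. The difference between this list and the histone genes was not tested.

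**Figure D5:**
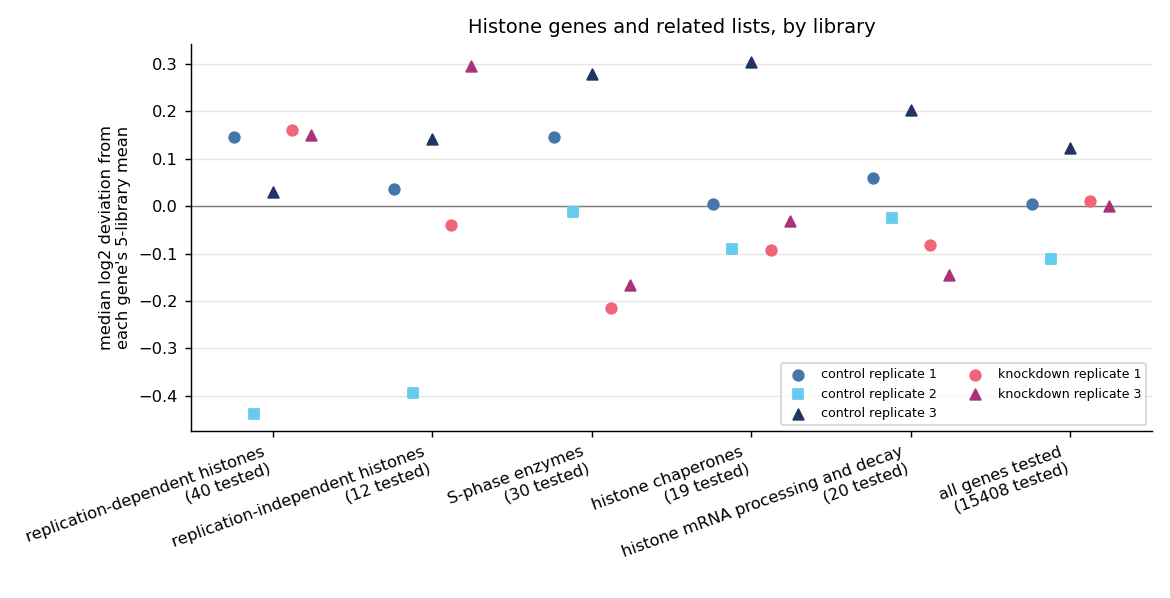
Median deviation of each list's tested genes from their own 5-library mean (log2(RPKM + 0.5) scale), by library. Control replicate 2 is low for both histone lists (-0.44 and -0.39), and for the S-phase enzymes the 2 knockdown libraries (-0.22 and -0.17) lie below all controls.

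Genes that act on histone transcription and on the S-phase cycle were mostly below 0: 9 of 12, with a median of -0.36 and none called, and 11 of 12 without control 2. CCNE1, cyclin E1, was at 6.02, 6.64, 6.08, 4.26 and 4.95 RPKM (-0.40 ± 0.16, SE), and CCNA2, cyclin A2, at 43.2, 34.7, 59.3, 33.9 and 28.4 RPKM (-0.52 ± 0.26, SE). NPAT, the coactivator of histone genes that cyclin E and CDK2 phosphorylate, was at 1.47, 2.38, 2.57, 1.47 and 1.14 RPKM (-0.53 ± 0.27, SE). In CCNE1 and CCNA2 both knockdown libraries lay below all controls, whereas for NPAT knockdown 1 was level with control 1 to 3 digits.

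Among 20 genes of histone mRNA processing and decay, 17 were below 0 with a median of -0.19 (18 without control 2, median -0.26), and 1 reached an unadjusted p under 0.05. That was TUT7, a terminal uridylyltransferase, at 5.39, 5.43, 7.48, 3.88 and 3.36 RPKM (-0.67 ± 0.21, SE). NCBP1, of the cap-binding complex, differed by -0.38 ± 0.18 (SE), and ERI1, an exonuclease that trims the stem-loop end, by -0.37 ± 0.19 (SE). SLBP itself, named for its role and not by its value, was at 54.5, 41.5, 59.4, 45.4 and 52.1 RPKM, with overlapping groups and a difference of -0.07 ± 0.20 (SE).

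The histone chaperones, which carry histones to DNA, lay below 0 in 13 of 19 cases, with a median of -0.14 and none called, and without control 2 in 16 of 19, with a median of -0.18. HJURP, the chaperone of the centromeric histone CENPA, was at 23.2, 24.0, 24.2, 16.1 and 12.7 RPKM (-0.71 ± 0.16, SE), with both knockdown libraries below closely spaced controls. SUPT16H, a subunit of FACT, differed by -0.43 ± 0.18 and TONSL, which binds newly made histone H4, by -0.43 ± 0.19 (SE).

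RNAs that end without a poly(A) tail were counted because the stem-loop histone mRNAs also end without one. Of 30 such RNAs, 13 were listed at 0 in all 5 libraries, among them RN7SK, RN7SL1, RMRP, RPPH1 and TERC, and 9 were tested. Of all genes outside the histone set, 45.0% were at 0 in all 5 libraries, so the count is not particular to these RNAs. A 0 may here too not be a measured absence, since how reads were assigned is not given. RN7SL2 was at 2115, 1621, 611, 965 and 2324 RPKM, with overlapping groups. RNY1, at 1.93, 31.8, 0, 0 and 0.582 RPKM, and RNU1-1, at 3.98, 31.3, 0.933, 0.656 and 2.81 RPKM, were high in control 2. In that library 1 read on a gene of 1026 bases was worth 0.5 RPKM, and more on a shorter one. The high values of these short RNAs thus also rest on few reads. RNU5A-1 was at 1.88, 0, 2.64, 0 and 0.567 RPKM, from few reads. The median deviation of this list was 0.28, 0.81 and -1.23 in the controls and -0.50 and -0.10 in the knockdown libraries, so that control 2 was highest here while it was lowest for the histone genes. How RNA was selected for the libraries is not given in the sources used here, and its part in the histone levels was not tested. In bulk RNA, the number of cells in S phase and the amount of histone RNA in each such cell cannot be told apart.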

How the data were processed

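The authors deposited 1 table with an RPKM value for each gene and library. HISAT2 and GRCh38 are named in the submitters' processing notes; the counter, the annotation and any use of strand are not given there. GENCODE release 29, which held all 58676 gene IDs, gave symbols, exon lengths and transcripts. RPKM times exon length was a whole multiple of 1 read (tolerance 0.002) for 100% of values above 0 in 5 libraries and for 0.378% in knockdown replicate 2, which was left out. The multiples were summed as depth, which limits the precision of low genes.

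A gene was tested if 3 of the 5 libraries or more had at least 0.5 RPKM. Tests were two-sided, with limma 3.58.1 (R 4.3.3; lmFit, eBayes with trend) on log2(RPKM + 0.5), with Benjamini-Hochberg adjustment over 15408 genes. The script was tested on simulated data. Members and lists were chosen with earlier results of these data known. All members tested are named, those of highest mean level with each library's value, and of each other list the 3 of largest moderated statistic. SLBP, RN7SL2, H1F0, MIR17HG and the genes named among markers, copies, overlapping genes and unexpressed genes stand outside that rule. Shared sequence was counted in 50-base words. Alternatives were other pseudocounts, filters and scalings, no trend, voom on recovered reads, length and GC correction, a replicate block, all 6 columns and leaving out each library. Counting the near-identical HIST2 pairs once and leaving out HIST1H2BK were added after seeing the data.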

Additional observations from a re-analysis of the deposited data

How the results depend on the processing

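The count of genes called was 0 in every alternative run except the replicate block, which called 40 (33 higher and 7 lower, no histone gene among them). The labels' numbers give only 2 pairs, whose deviations from the group mean correlated at -0.168 and 0.018. With 2 knockdown libraries these deviations mirror each other, so the correlations cannot show whether the samples were paired. In that block control 2 has no partner, and the histone median was -0.001 (20 genes above and 20 below 0). With all 6 columns as deposited it was -0.384, while the median of all genes was -0.912. Leaving out 1 library at a time gave 0 calls each, a median of 0.053 to 0.382 and a log2 ratio of summed RPKM of 0.211 to 0.642, the lowest both without control 2. The other alternatives for the median lay between 0.06 (voom) and 0.283 (pseudocount 0.1), and those for the sum between 0.201 (length and GC trend removed) and 0.461 (without HIST1H2BK). Of the 40 histone genes, 22 kept their sign in each of the 16 alternatives other than the 6 columns in which they had a value. Of these 22, 18 were above and 4 below 0, and 17 had a value in all 16. The 4 below 0 include HIST1H2AH and HIST1H1E, which passed the filter through the control libraries only. Of the 40, 20 had 0 or 1 read in control 2, which limits the precision of their differences.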
